A study of Mus musculus with 6 samples.

Results

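The complement system is a cascade of plasma and cell surface proteins that tags microbes and damaged cells, attracts leukocytes and punctures membranes. In the classical pathway the proteases C1r and C1s work together, and C1s cleaves C4 and C2. Their fragments form an enzyme that cleaves C3, the protein on which all routes converge. In the alternative pathway factor B takes the place of C2. Host cells limit the cascade with a secreted inhibitor of C1r and C1s (Serping1) and with the membrane proteins CD55 and CD59. The liver makes most of the plasma proteins, but epithelial and tumor cells also transcribe many of these genes, and several respond to inflammatory cytokines. The data below describe 9 of these genes, C1ra, C1s, C4b, C2, C3, Cfb, Serping1, Cd55 and Cd59a, out of 36163 genes named on a mouse microarray. They were taken by gene name and were read by 12 probes.

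The cells were N18-Fms cells, which the sample labels write as N18-CFMS. N18 is one subclone of the C2H line, itself cloned from a prostate tumor of the TRAMP transgenic mouse, so all arrays describe the progeny of 1 clone. N18-Fms cells carry a firefly luciferase construct and a retrovirally introduced mouse c-fms cDNA, which encodes the receptor of colony stimulating factor 1 (CSF-1), and were sorted for surface receptor. All groups, unstimulated cells included, shared these constructs and were grown in serum-containing medium with dihydrotestosterone. Unstimulated cells (called Control, 2 arrays) were compared with cells given recombinant mouse CSF-1 at 100 ng/mL for 24 h (2 arrays) or 48 h (2 arrays). Unstimulated means that no CSF-1 was added. The study detected CSF-1 in medium of N18 cells and proposes autocrine activation of the introduced receptor without added CSF-1. The times are those of the sample labels, and the study's methods text names shorter ones. The labels give no time for the unstimulated cells, and the same group served both comparisons. Effects of CSF-1 and of time in culture therefore cannot be told apart. RNA came from independent experiments, and the comparison asks how complement genes responded to CSF-1 in tumor cells made to express its receptor.

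Each array was a one-color Agilent array with 59305 spots other than controls, of which 58.7% to 72.0% were well above background and 0 were saturated. Values are given as relative log2 signal, the log2 of the spot signal minus the 75th percentile of the same array, so that 0 is the level of that percentile and 1 unit is a 2-fold difference. A probe's level depends on its sequence as well as on its transcript, and so levels are compared between arrays for one probe and never between genes. These are bulk samples, in which fewer expressing cells and less RNA per cell cannot be told apart. Replicate 1 at 24 h was on another slide than the other arrays.

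Of the cell markers listed, the mesenchymal genes Vim, Fn1 and Cdh2 were well above background on all 6 arrays, whereas the epithelial cadherin gene Cdh1 was so on 0 arrays and Epcam on 1. Of 10 macrophage markers on the arrays, 6 were tested and 0 were called at either time. Ptprc, Emr1, Itgam, Cd14 and Csf1r, the introduced receptor gene, were well above background on all 6 arrays, Cd68 on 4, Fcgr1 and Tyrobp on 3, Aif1 on 2 and the lysozyme gene Lyz2 on 0. Itgam, an integrin gene of myeloid cells, had a mean relative log2 signal of 5.31 in unstimulated cells. The summed linear signal of the macrophage markers, relative to the 75th percentile, was 73.9 to 75 in unstimulated cells, 70.6 to 72.4 at 24 h and 54.6 to 65.3 at 48 h. Most of this sum comes from the probes of Itgam and of the introduced receptor gene Csf1r (mean 5 in unstimulated cells). Itgam had a log2 fold change of -0.65 at 48 h (adjusted p = 0.12 in limma). Cd14, which encodes a co-receptor for bacterial lipopolysaccharide, had log2 fold changes of 0.87 (adjusted p = 0.0101) and 0.69 (adjusted p = 0.0191), under 2-fold, and whether such cells contributed to the complement signals was not tested. Among the epithelial markers 1 was called at 48 h, the keratin gene Krt8, with a log2 fold change of 1.98 and an adjusted p of 0.0106.

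The probe sequences below are shown for genes read by a pair of probes, namely C3 and Serping1, where the pair differed, and C1ra, where it did not, and for Cfb, which was detected at 48 h alone. All are 60 bases, given 5′ to 3′ in the sense of the transcript, as deposited. Apart from the end of the second C3 probe, which runs past the stop codon, they lie in coding sequence.
C3, probe A_55_P2038525: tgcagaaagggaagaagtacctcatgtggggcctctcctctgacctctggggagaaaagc
C3, probe A_51_P110301: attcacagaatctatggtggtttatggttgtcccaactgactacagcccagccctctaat
C1ra, probe A_55_P2015363: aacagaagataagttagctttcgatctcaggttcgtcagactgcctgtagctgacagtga
Serping1, probe A_51_P376238: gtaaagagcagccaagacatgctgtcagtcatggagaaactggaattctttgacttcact
Cfb, probe A_51_P413866: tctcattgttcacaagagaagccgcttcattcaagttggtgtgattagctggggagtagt
In the mm9 build used by the arrays' annotation, the C3 probes lie on the minus strand at chr17:57343678-57343737 and chr17:57343416-57343475. The C1ra probe shown lies on the plus strand at chr6:124472674-124472733. The Cfb probe spans an intron on the minus strand at chr17:34993502-34993858, and the Serping1 probe shown also crosses introns, at chr2:84605968-84607474 on the minus strand. No probe of another gene shared a run of 20 bases with any of the 12 probes.

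After 24 h of CSF-1 none of the complement genes was called, and after 48 h the genes C4b, Cfb and Serping1 were called, all 3 of them higher. A gene was called when its change was at least 2-fold with an adjusted p under 0.05 in limma, with p adjusted over the 24643 genes tested. Of the 9 genes, 8 were tested, because Cd55 was not well above background. At 24 h 0 of 8 were called higher and 0 lower, beside 4.55% and 1.62% of all genes tested. At 48 h 3 of 8 were called higher and 0 lower, beside 3.95% and 1.45% of all genes. Cfb was among the 8 only through its 48 h arrays, the group in which it was then called. With detection required on all 6 arrays, 2 were called higher at 48 h. The count of 3 fell to 1 without replicate 1 or without replicate 2 of the unstimulated cells, and the gene left in both was Cfb. Cfb was not well above background in unstimulated cells or at 24 h. With the background corrected by normexp the count was also 1, and the gene left was C4b. The median log2 fold change of the 8 genes was 0.12 at 24 h and 0.45 at 48 h, against 0.04 and -0.04 over all genes tested. These medians include Cfb, which passed the detection filter through its 48 h arrays alone. The median at 48 h therefore cannot be read as a shift of the genes as a group. The comparisons at 24 h and 48 h share the same unstimulated arrays.

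**Figure D1:**
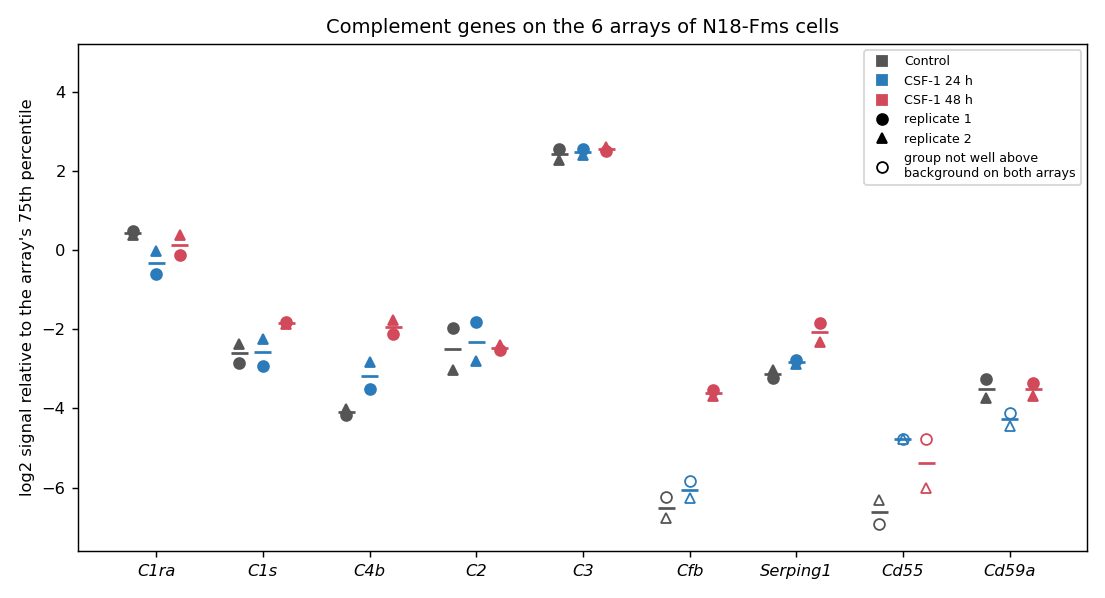
Relative log2 signal (vertical axis) of the 9 complement genes on each of the 6 arrays, one probe a gene; color gives the group, shape the replicate number, short lines the group means, and open symbols a group not well above background on both arrays. C4b, Cfb and Serping1 at 48 h lie above both other groups, and C3 stays between 2.26 and 2.60 on every array.

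C1ra and C1s encode the serine proteases that start the classical pathway. They lie side by side on chromosome 6. Neither was called, and the genes were not tested against each other. C1ra (chr6:124473052-124473111) had relative log2 signals of 0.47 and 0.37 in unstimulated cells, -0.61 and -0.03 at 24 h and -0.13 and 0.37 at 48 h. Both 24 h arrays lay below both unstimulated arrays, and the 48 h arrays overlapped them. The log2 fold change was -0.74 ± 0.26 (SE, n = 2 per group) at 24 h, with an unadjusted p of 0.0313 and an adjusted p of 0.119 in limma, and -0.30 at 48 h (adjusted p = 0.494). The coding probe of C1ra gave -0.72 at 24 h (adjusted p = 0.0966) and -0.40 at 48 h (adjusted p = 0.297), close to the values of the other C1ra probe.

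C1s (chr6:124480775-124480834) had relative log2 signals of -2.85 and -2.38 in unstimulated cells, -2.93 and -2.25 at 24 h and -1.83 and -1.86 at 48 h. The first 2 groups overlapped, and both 48 h arrays lay above all others. Its log2 fold change was 0.02 at 24 h (adjusted p = 0.975) and 0.76 at 48 h (95% interval 0.08 to 1.45, adjusted p = 0.128). Between 24 h and 48 h the log2 difference was 0.75, with an unadjusted p of 0.0368 and an adjusted p of 0.328.

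C4b and C2 encode the substrates of C1s, whose fragments combine into the C3 convertase of the classical and lectin pathways. C4b was higher at 48 h, and C2 showed no change that could be told from the spread. C4b (chr17:34865328-34865387) had relative log2 signals of -4.17 and -4.02 in unstimulated cells, -3.52 and -2.84 at 24 h and -2.12 and -1.77 at 48 h. The 3 groups did not overlap, and the 24 h arrays lay between the other groups. At 24 h the log2 fold change was 0.91 (adjusted p = 0.0749), which was not called. At 48 h C4b rose 4.44-fold, a log2 fold change of 2.15 (95% interval 1.51 to 2.79, adjusted p = 0.00921). With the background corrected by normexp, which lifts dim signals, it was 1.15 or 1.07, depending on the scaling, and C4b was then the 1 complement gene still called. The difference between 48 h and 24 h was 1.24 on the log2 scale (unadjusted p = 0.00389, adjusted p = 0.166). Leaving out 1 array of the unstimulated cells raised the adjusted p at 48 h to 0.0637 (without replicate 1) or 0.0554 (without replicate 2), and leaving out 48 h replicate 2 raised it to 0.0524, with log2 fold changes of 2.08, 2.22 and 1.98. Mice carry a near-identical neighbor gene, C4a, which has no probe named for it here, so the signal may hold RNA of both.

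C2 (chr17:34999575-34999634) had relative log2 signals of -1.96 and -3.04 in unstimulated cells, -1.82 and -2.81 at 24 h and -2.53 and -2.41 at 48 h. The replicates of the first groups stood about 1 unit apart, replicate 1 being higher in both, with SDs of 0.76 and 0.70, against 0.08 at 48 h. The log2 fold change was 0.18 at 24 h (adjusted p = 0.838) and 0.03 at 48 h (adjusted p = 0.977). The 95% interval at 48 h ran from -1.12 to 1.18, so changes of about 2-fold either way lie within it.

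C3 is the central component, cleaved by both convertases into the opsonin C3b and the anaphylatoxin C3a. Its probes disagreed. The brighter one, A_55_P2038525, which stood for the gene, gave relative log2 signals of 2.55 and 2.26 in unstimulated cells, 2.56 and 2.39 at 24 h and 2.49 and 2.60 at 48 h. The 3 groups overlapped, with log2 fold changes of 0.07 at 24 h (95% interval -0.30 to 0.44, adjusted p = 0.797) and 0.14 at 48 h (95% interval -0.23 to 0.51, adjusted p = 0.585). A 2-fold change in either direction lies outside both intervals for this probe.

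The dimmer C3 probe, A_51_P110301, is printed in 10 spots per array and starts at base 5053 of the transcript, against base 4887 for the brighter one. It gave relative log2 signals of -2.26 and -2.19 in unstimulated cells, -1.29 and -0.83 at 24 h and -1.16 and -0.67 at 48 h. All stimulated arrays lay above both unstimulated arrays, and the spots of one array varied with an SD of 0.06 to 0.15. In a limma fit over all probes the log2 fold change was 1.16 at 24 h (adjusted p = 0.0354) and 1.31 at 48 h (adjusted p = 0.0284). Both probes were well above background on all 6 arrays. The call for the dimmer probe held under 3 of 12 other settings at 24 h (log2 fold changes from 0.72 to 1.40) and 6 of 12 at 48 h (0.88 to 1.55). Without any 1 of the 4 arrays compared the adjusted p was above 0.05, between 0.0634 and 0.135 at 24 h and between 0.053 and 0.125 at 48 h. The cause of the disagreement was not tested.

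**Figure D2:**
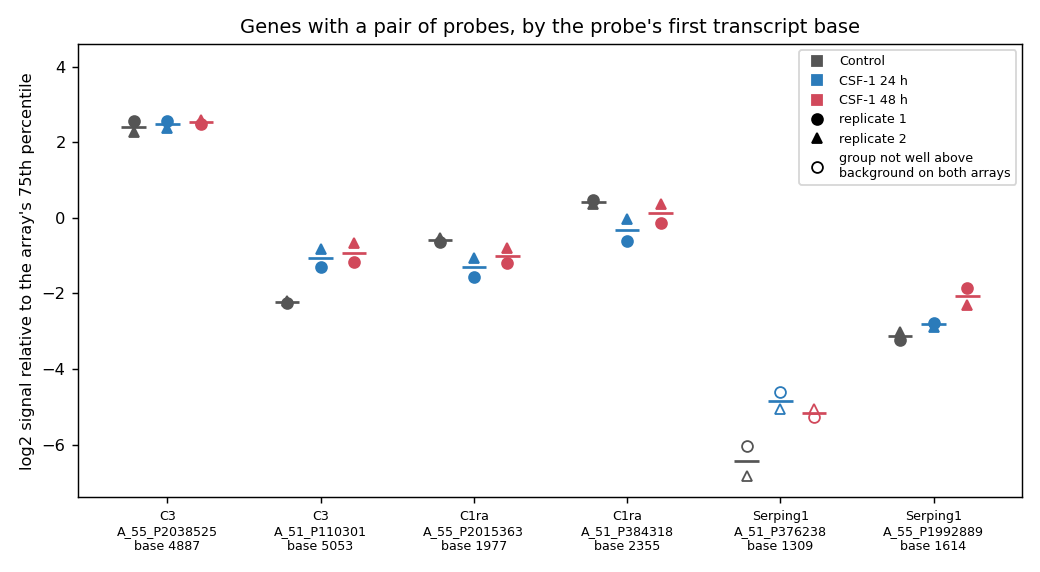
Relative log2 signal (vertical axis) on the 6 arrays for the 3 genes with a pair of probes, C3, C1ra and Serping1, labelled with the probe name and its first base in the transcript; symbols are as in the plot of all 9 genes. The C3 probe at base 4887 is level across groups while the one at base 5053 rises from about -2.2 to about -1, and the C1ra probes move alike.

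Cfb encodes factor B, the protease-bearing subunit of the alternative pathway convertase. It was well above background at 48 h but in no other group. Relative log2 signals were -6.25 and -6.78 in unstimulated cells, -5.83 and -6.27 at 24 h and -3.53 and -3.70 at 48 h. Both arrays at 48 h were well above background, against 0 of the 4 others. For an approximate lower limit, dim arrays were set to the array's lowest signal well above background for any probe, where that was higher. By this limit Cfb was 2.15-fold higher at 48 h than in unstimulated cells. The limit is not strict, because a probe can be not well above background at a higher signal. The adjusted p was 0.00338 in limma, whose fitted log2 fold change of 2.90 rests on signals not well above background. Against 24 h the lower limit was 1.69-fold, with an adjusted p of 0.104. No fold is given at 24 h, where both groups were not well above background (adjusted p = 0.258). After normexp the log2 fold change at 48 h was 0.63 (adjusted p = 0.0251), under 2-fold.

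Serping1 encodes the C1 inhibitor, a secreted serpin that inactivates C1r and C1s and also controls plasma kallikrein. Probe A_55_P1992889 (chr2:84605663-84605722), which stood for the gene, gave relative log2 signals of -3.23 and -3.03 in unstimulated cells, -2.77 and -2.88 at 24 h and -1.85 and -2.32 at 48 h. The groups did not overlap and stood in the order of time. The log2 fold change was 0.30 at 24 h (adjusted p = 0.345) and 1.05 at 48 h (95% interval 0.57 to 1.52, adjusted p = 0.0265), a 2.07-fold rise that just passed the 2-fold limit. Of 19 other settings, 6 kept this call, and over all of them the log2 fold change at 48 h lay between 0.57 and 1.28. Without any 1 array other than 48 h replicate 2 the adjusted p was above 0.05, at 0.121 and 0.087 without unstimulated replicates 1 and 2, 0.0536 without either 24 h array and 0.0796 without 48 h replicate 1. The other Serping1 probe, A_51_P376238, was well above background on 0 of 6 arrays and gave no fold.

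Cd55 and Cd59a encode regulators anchored in the membrane, the first of which speeds the decay of C3 convertases while the second blocks the membrane attack complex. Neither was called at either time. Cd55 (chr1:132335716-132335775) was well above background on 0 of 6 arrays, with relative log2 signals of -6.93 and -6.31 in unstimulated cells, -4.78 on both arrays at 24 h, and -4.77 and -6.01 at 48 h. It was therefore not tested. Cd59a (chr2:103954688-103954747) had signals of -3.27 and -3.74 in unstimulated cells, -4.12 and -4.44 at 24 h and -3.35 and -3.68 at 48 h. Both 24 h arrays lay below all other arrays and were not well above background. By the approximate limit used for Cfb, Cd59a was 1.61-fold lower at 24 h than in unstimulated cells. This limit is not strict, because the Cd59a signal of -4.12 already lay above the lowest signal well above background on that array (-4.48). At 24 h the unadjusted p was 0.0164 and the adjusted p 0.0814 in limma, and the log2 fold change at 48 h was -0.01 (adjusted p = 0.985). The 24 h value passed the call when arrays were quantile normalized (-1.25, adjusted p = 0.0116) or centred on their medians (-1.06, adjusted p = 0.0157).

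**Figure D3:**
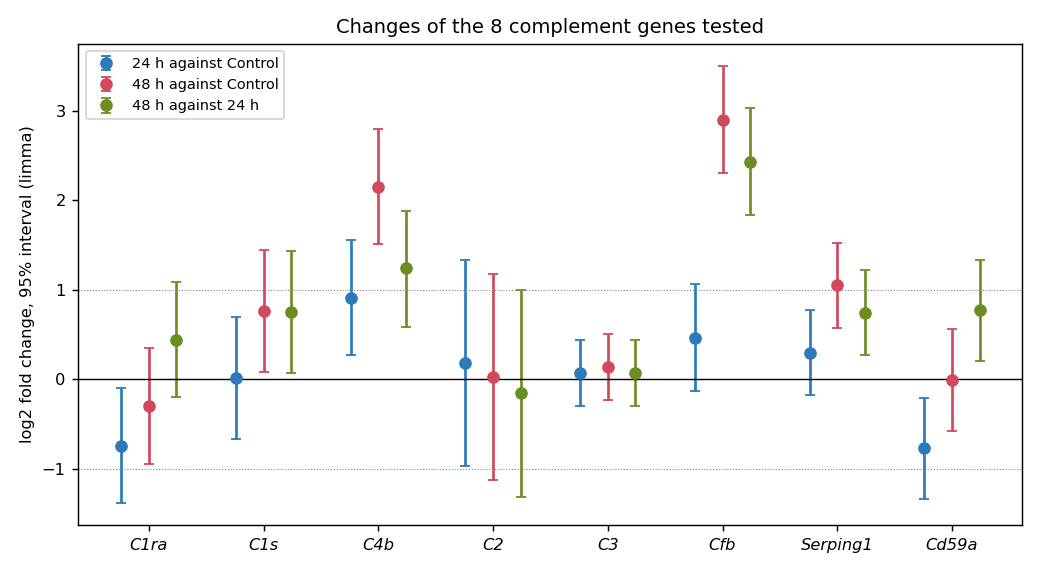
Log2 fold change (vertical axis) of the 8 genes tested, for 24 h against Control, 48 h against Control and 48 h against 24 h; points are limma estimates, bars 95% intervals, and dotted lines mark 2-fold. The intervals of C4b and Cfb at 48 h lie wholly above the 2-fold line, that of Serping1 crosses it, and those of C3 lie within both lines; the Cfb estimates rest on signals not well above background in Control and at 24 h.

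Between 24 h and 48 h 0 of the 8 genes were called with adjusted p, as were 0% of all genes tested in that comparison. At an unadjusted p under 0.05 and 2-fold, C4b and Cfb were higher at 48 h than at 24 h, 2 of 8 genes beside 0.868% of all genes tested, and 3355 of all 24643 genes had an unadjusted p under 0.05 without regard to fold. For Cfb this 2-fold rests on a fitted value against 24 h signals not well above background, and its approximate lower limit is 1.69-fold. The adjusted p of Cfb was 0.0475 when arrays were quantile normalized and 0.0400 when they were centred on their medians, and after normexp it was 0.36 or 0.228, depending on the scaling.

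Other genes of the system were taken from a list of 55 names of initiators, terminal components, regulators and receptors, of which 49 were named on the array and 30 were tested. At 24 h 5 of 30 were called higher and 0 lower, and at 48 h 4 were called higher and 0 lower, with median log2 fold changes of 0.04 and -0.08. Of all genes tested, 4.55% and 3.95% were called higher at these times. Colec10 and Colec11 were among the 30 only through stimulated groups. With detection required on all 6 arrays the counts called higher were 3 at 24 h and 3 at 48 h. The count of 5 was 2 under quantile normalization, median centring or normexp, and with 1 array left out it was 2 or 3 without unstimulated replicate 1 or 2 and 2 or 1 without 24 h replicate 1 or 2. The count of 4 was 2 under normexp and 2 without unstimulated replicate 1. The initiators held 2 of 11 tested genes called at 24 h and 1 at 48 h. Among core, alternative and terminal components it was 1 of 6 at each time, and among receptors 2 of 7 at each time. None of the 3 fluid-phase regulators or 3 membrane regulators tested was called.

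The change of Colec10, which encodes a collectin that recognises sugars and works in the lectin pathway, exceeded all others on this list. Its relative log2 signals were -6.98 and -6.95 in unstimulated cells, where it was not well above background, 2.98 and 2.27 at 24 h and 2.81 and 2.49 at 48 h. By the approximate lower limit used for Cfb, Colec10 was 163-fold higher at 24 h (adjusted p = 0.000845) and 166-fold higher at 48 h (adjusted p = 0.00053). Colec11, which encodes a related collectin, was 2.03-fold higher at 24 h by that limit (adjusted p = 0.0466), with 1 of 2 arrays well above background. It was not called at 48 h (log2 fold change 0.96, adjusted p = 0.0736).

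Cd93, a receptor gene once linked to C1q, had relative log2 signals of -3.35 and -2.33 in unstimulated cells, 0.55 and 0.70 at 24 h and 0.59 and 1.44 at 48 h. Its log2 fold changes were 3.46 (adjusted p = 0.00951) and 3.86 (adjusted p = 0.00727). Smaller rises were found for C3ar1, the receptor of C3a, with 1.04 at 24 h (adjusted p = 0.0119) and 1.12 at 48 h (adjusted p = 0.0101). Hc, which encodes C5, also rose, by 1.04 (adjusted p = 0.0207) and 1.12 (adjusted p = 0.0179) on the log2 scale. At 24 h C3ar1 and Hc were each 2.05-fold higher, just past the 2-fold limit. Cr1l, the gene of the rodent membrane regulator Crry, was well above background on all 6 arrays and had log2 fold changes of 0.22 (adjusted p = 0.426) and -0.17 (adjusted p = 0.556).

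**Figure D4:**
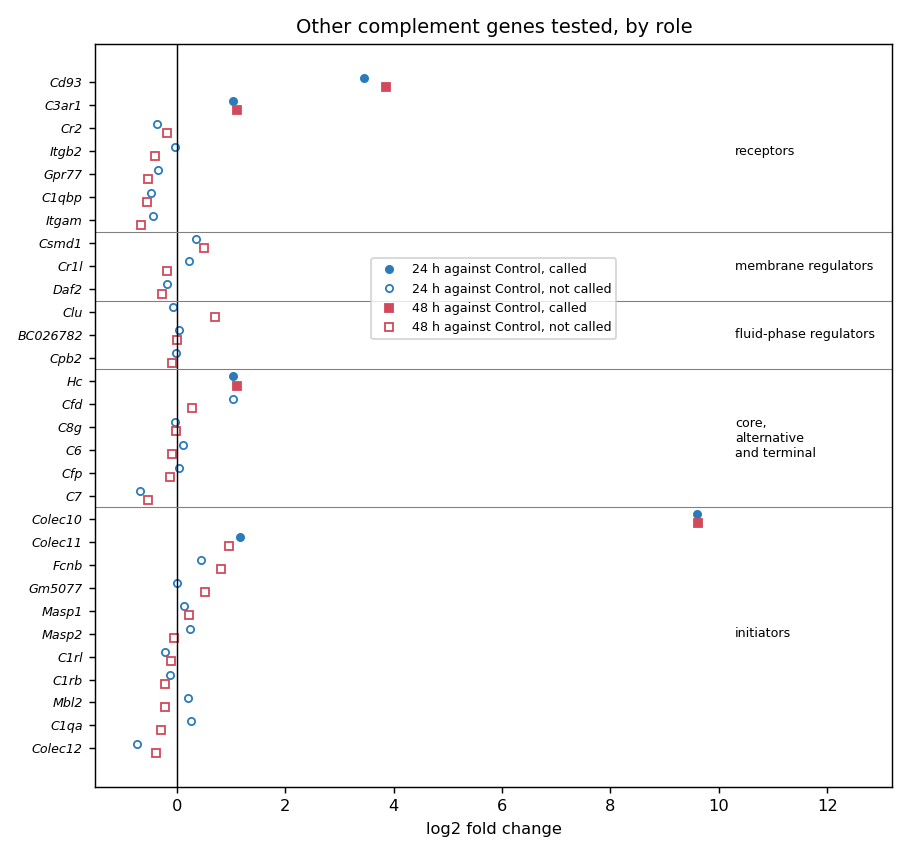
Log2 fold change (horizontal axis) of the 30 other complement genes tested, grouped by role, at 24 h (circles) and 48 h (squares) against Control; filled symbols are called. Colec10 and Cd93 stand apart on the right, C3ar1 and Hc lie near 1 and most others lie near 0; the Colec10 points are fitted values against signals not well above background.

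C4b, Cfb and C2 lie in one stretch of chromosome 17, where Cfb and C2 are adjacent in the RefSeq gene order. Among the 3 protein-coding genes on either side of each of the 9 genes there were 41 other genes, of which 29 were tested and 2 were called higher at each time, beside 4.55% and 3.95% of all genes tested. These were Tnfsf9, which encodes a ligand of the tumor necrosis factor family and lies near C3, with log2 fold changes of 1.61 and 1.14 (adjusted p = 0.00351 and 0.00743), and Ube2l6, next to Serping1, with 2.33 and 3.50 (adjusted p = 0.00419 and 0.00142). Ube2l6 encodes an enzyme that conjugates the interferon-induced protein ISG15. None of the tested neighbors of C4b or Cfb was called, C2 included.

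**Figure D5:**
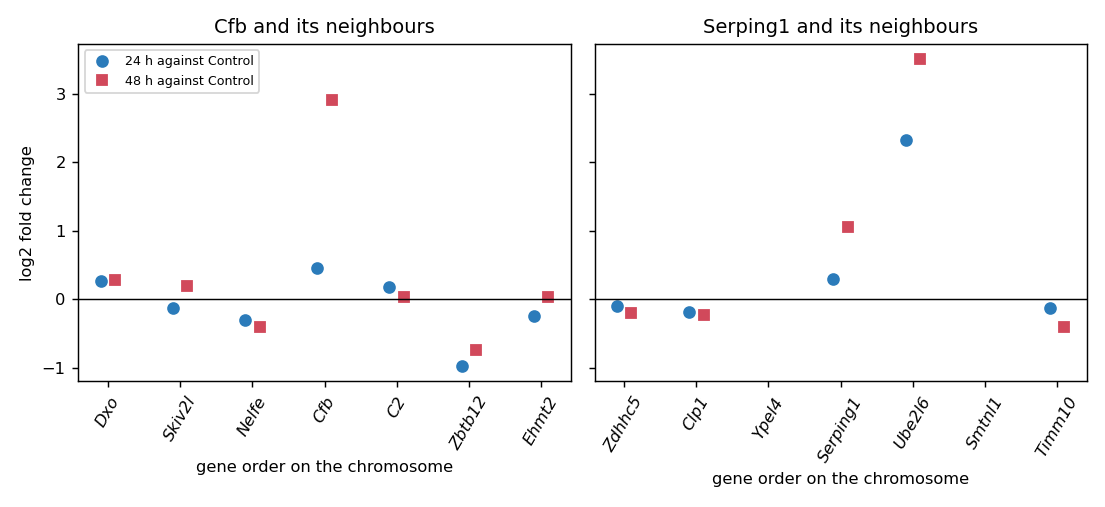
Log2 fold change (vertical axis) at 24 h (circles) and 48 h (squares) against Control for Cfb, Serping1 and the 3 protein-coding genes on either side of each, in chromosome order; a gene without symbols was not tested. Cfb at 48 h and both Ube2l6 values exceed 2, and C2, next to Cfb, lies near 0.

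Upstream sequence in the RefSeq table (build GRCm38.p6) was at hand for 5 of the 9 genes, C3, C1ra, C1s, Cd55 and Cd59a, with 250 bases before each start site. On both strands 4 motifs were searched: the gamma-activated site TTCNNNGAA, the core of the interferon-stimulated response element GAAANNGAAA, the NF-kB motif GGGNNNNTCC and the C/EBP motif TTGCNNAA. C3 held an NF-kB match from -196 to -187 on the minus strand and the C/EBP match TTGCGAAA from -45 to -38. C1s had a second start site listed. A C/EBP match on the minus strand, from -242 to -235, was found before its first start site only. Cd59a held an interferon-stimulated response element core from -187 to -178. Of 32851 mouse promoters of this length, 7.02% held the gamma-activated site, 2.98% the response element core, 16.5% the NF-kB motif and 9.56% the C/EBP motif. The 3 genes called at 48 h, C4b, Cfb and Serping1, were not searched.

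The 5 genes whose pattern over the 6 arrays was nearest to that of C3 (brighter probe), by the distance between centred relative log2 signals, were Magi2, Nfasc, Card14, Zbtb49 and Sp100. Their distances were 0.07 to 0.09 log2 units with Pearson's r from 0.954 to 0.985 over 6 arrays, given as a description. Their log2 fold changes were 0.03 to 0.21 over both times. These small values follow from choosing genes by their distance from the brighter C3 probe, and the dimmer C3 probe was not used.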

How the data were processed

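The authors hybridized Cy3-labelled cRNA of N18-Fms cells, 2 arrays per group from independent experiments, to Agilent mouse 60K arrays and extracted signals with Agilent Feature Extraction 11.0.1. The deposited files give the processed signal, a background-subtracted linear intensity not normalized between arrays, with flags. The authors also deposited log2 values centred per probe, whose differences between arrays were within 0.05 of those of the scanner signals for 99.8% of probes, with column medians from -0.0378 to 0.173. Their baseline per probe is unknown, and their table served as an alternative.

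Outlier spots were left out (303 probes wholly), repeated spots averaged, log2 taken and each array's 75th percentile subtracted. The brightest probe stood for a gene. Of 36028 genes with a usable probe, 24643 passed a detection filter (a group, 1 or more, with both its arrays well above background). These were tested with limma 3.58.1 in R 4.3.3 (lmFit, then eBayes, on all 6 arrays, 2-sided, 3 residual and 2.39 prior degrees of freedom, Benjamini-Hochberg). The procedure was tested on simulated data. An exact permutation test of 2 against 2 arrays cannot go below 0.333, so none is given. The number of arrays limits the precision.

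Genes named were the 9 complement genes, every gene called on the wider list (12 at most) and the 5 genes nearest to C3; Cr1l, Tnfsf9 and Ube2l6 were named after their values were seen. Members and lists were chosen with earlier results of these data known. Of the 49 wider genes, 4 were matched through a RefSeq accession. A lower limit of a fold sets dim arrays to the array's lowest signal well above background for any probe, where that is higher. It is approximate, because a probe can be not well above background at a higher signal. Alternatives were quantile normalization, median centring, normexp (offset 50) with either scaling, the authors' table, other filters, probes and fits, blocks for replicate and slide, the methods' t-test and leaving out arrays.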

Additional observations from a re-analysis of the deposited data

How the results depend on the processing

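Of the 9 complement genes, the number called higher at 48 h (3) was 1 under normexp with either scaling, 0 with the methods' t-test after Benjamini-Hochberg adjustment (2 before it, C4b and Cfb) and 1 to 2 with each array left out in turn, the lowest without Control replicate 1 or 2. At 24 h 1 gene (C3) was called higher when every probe was tested on its own, and 1 (Cd59a) lower after quantile normalization or median centring. Between 24 h and 48 h 1 (Cfb) was called under quantile normalization, 1 under median centring and 2 without adjustment of p. For the wider list, the 5 called higher at 24 h became 2 under quantile normalization, median centring, normexp with either scaling or the slide as a block, 3 when detection was required on all 6 arrays, 0 with the methods' t-test and 1 to 4 with an array left out (2 without Control replicate 1, 3 without Control replicate 2, 2 without 24 h replicate 1, 1 without 24 h replicate 2). At 24 h 1 gene of it was called lower under median centring, with the slide as a block and, of the arrays left out, without 24 h replicate 1 (0 to 1). The 4 called higher at 48 h became 2 under normexp with either scaling, 0 with the methods' t-test and 2 to 4 with an array left out, the lowest without Control replicate 1. Median centring moved the median of all genes to -0.25 at 24 h and -0.14 at 48 h, from 0.04 and -0.04. The causes were not tested.

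With the replicate block 3 of the 9 genes were called higher at 48 h and 0 at 24 h, and no count in either list changed by over 1.5 times. Deviations of same-numbered arrays correlated at 0.128, 0.094 and 0.199 for the 3 pairs of groups. The labels do not tie a number to an experiment, and the pairing was not settled. The slide block equals leaving out 24 h replicate 1, the only array of its slide. The settings for the dimmer C3 probe were chosen after seeing the data. Dim signal limits Cfb, Cd55, Cd59a and the second Serping1 probe.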
